A study of Mus musculus with 8 samples.

Results

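The cholesterol and fatty acid genes of the mouse forebrain were followed after microglia had been removed with a drugged diet. The group held 41 genes, chosen by symbol from a list of enzymes and regulators of lipid synthesis, out of 53278 symbols in the count table. All 41 were found and all passed the filter on low counts, which kept 20140 symbols. The libraries were made from total RNA of whole forebrains of 8 male mice of the strain C57BL/6J, for which the labels give an age of 10 to 20 weeks. The 4 depleted mice received PLX3397 in their food over 9 days. PLX3397 inhibits CSF1R, a kinase that microglia need to survive. The 4 control mice ate control food. The labels name no engineered allele, and a drug given in food is not limited to the brain or to microglia.

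Brain cholesterol is made within the brain, because the blood-brain barrier keeps plasma lipoproteins out. Astrocytes and oligodendrocytes are the main producers in the adult, and myelin holds most of the brain's cholesterol. The pathway runs from acetyl-CoA through mevalonate to squalene and then through a chain of sterols. Its genes are switched on together by SREBP transcription factors, which the escort protein SCAP carries to the Golgi when sterols are low and which INSIG proteins hold back when sterols are plentiful. Liver X receptors (LXR) respond to oxidized sterols and switch on efflux pumps and Mylip, a ubiquitin ligase that removes lipoprotein receptors from the cell surface. Fatty acid synthesis shares the acetyl-CoA supply and the SREBP control.

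The libraries held 48455538 to 68406688 counts. Csf1r, the gene of the drug's target, had 0.386 to 1.69 CPM (counts scaled to library size with TMM factors) in depleted mice and 51.6 to 65.0 CPM in control mice, and all 15 microglia markers fell, with a sum of 17.5 to 24.9 CPM in depleted and 287 to 348 CPM in control mice. Of 6 cerebellum markers 5 passed the filter, and Gabra6 did not. The mean of the 5 was 0.97 to 1.85 log2 CPM in depleted and 0.80 to 2.32 log2 CPM in control mice, with 1 called lower. Hypothalamic RNA differed between libraries: Hcrt, a gene of hypothalamic neurons, had 1249 to 2081 counts in mice 2 and 3 of each group and 4 to 12 counts in mice 1 and 4. Of the 8 hypothalamus markers Pmch and Avp split the mice in the same way, whereas Agrp and Crh did not. Oxt was higher in depleted mouse 4 (41.5 CPM) than in depleted mice 2 and 3 (16.9 and 29.5 CPM). The mean of the 8 markers was 3.38 to 3.61 log2 CPM in mice 2 and 3 of each group. In mice 1 and 4 it was -0.25 to 1.29 log2 CPM. The split by Hcrt counts used below was chosen with these values known. It went with the mean of the hypothalamus markers, but not with each of them. The mean of 10 striatum markers was 7.53, 5.81, 7.82 and 7.47 log2 CPM in depleted mice 1 to 4. In control mice 1 to 4 the mean of these markers was 4.30, 6.82, 6.19 and 5.35 log2 CPM. Their log2 fold changes, depleted over control, ran from 1.06 (Tac1) to 1.56 (Adora2a), with a median of 1.46. By edgeR, 0 of the 10 were called and 9 had an unadjusted p under 0.05, where 11% of all genes did. Among the mice without Hcrt counts, both depleted mice had a higher striatum mean than both control mice. Among those with Hcrt counts, the groups overlapped in it. Values given below for the 2 Hcrt splits thus come from mice that also differed in striatum markers. The part that the share of striatum played in the results below was not tested beyond a fit with the mean of these markers as a covariate.

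Only Mylip passed the test among the 41 genes, and it fell. Mylip lies on chromosome 13, from 45389742 to 45412022 on the plus strand (GRCm38), and shares no exon bases with another annotated gene. Its level was 8.74, 11.5, 10.1 and 9.67 CPM in depleted mice 1 to 4 and 14.8, 14.0, 13.7 and 15.96 CPM in control mice 1 to 4. The highest depleted mouse lay below the lowest control mouse. Its log2 fold change, depleted over control, was -0.55 (SE 0.10; edgeR's quasi-likelihood test, adjusted p = 0.0290 over all genes), so that 68.5% of the control level was left. The 1 called member is 2.44% of the 41, beside 1.11% of all genes tested that were called lower. No member was called higher, where 0.0546% of all genes were. In bulk tissue fewer cells of a type and less RNA per cell cannot be told apart, and whether the lost Mylip RNA was that of microglia was not tested.

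The direction of Mylip held in all 19 alternatives, and its call in 8. The call ended when any of 7 of the 8 mice was left out (adjusted p from 0.0615 to 0.102), and it stood without depleted mouse 2, at -0.61 (adjusted p = 0.0107). It also ended with the striatum mean as a covariate, at -0.41 (adjusted p = 0.453). Among the mice with Hcrt counts, 2 per group, the log2 fold change was -0.35 (adjusted p = 0.906), and among those without it was -0.73 (adjusted p = 0.0851), so that neither split kept the call.

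**Figure D1:**
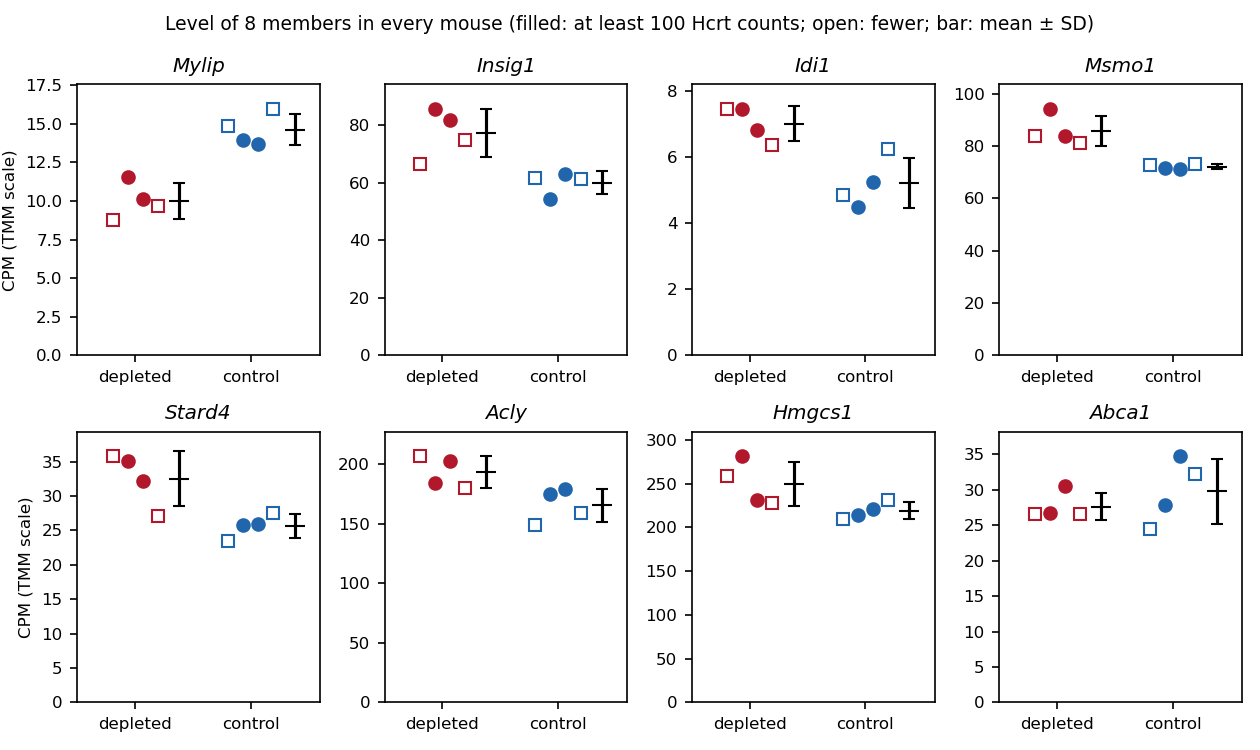
Level of 8 members in each mouse in CPM (TMM scale), depleted mice at left and control mice at right in every panel; filled circles are mice with at least 100 Hcrt counts, open squares mice with fewer, and bars give mean ± SD (n = 4). Mylip is lower in every depleted mouse, Insig1, Idi1, Msmo1 and Acly are higher in every depleted mouse, and Stard4, Hmgcs1 and Abca1 overlap between the groups.

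Most other members had small positive fold changes that did not pass the test. Of the 41 members 30 (73.2%) had a positive log2 fold change, against 49.9% of all genes tested. The median over the 41 was 0.11, and over all genes it was -0.00038. At an unadjusted p under 0.05, 12 members (29.3%) had higher values, against 5.38% of all genes. With Mylip that makes 13 members, and the number was 8 to 13 when 1 mouse was left out (8 without control mouse 2), 8 with the striatum mean as a covariate, 8 in the mice with Hcrt counts and 3 in those without. For Insig1, Idi1, Msmo1 and Acly the lowest depleted mouse was above the highest control mouse (9.76% of members, against 2.28% of all genes), and Mylip was the one member lower in all 4 (2.44%, against 3.5%). DESeq2 called Insig1, Msmo1 and Idi1 higher (0.586% of all genes were) and Mylip lower (1.72% were). Limma-voom called only Mylip (1.12% of all genes were lower there, 0.0447% higher). These genes are co-regulated and share the same 8 libraries, so the counts are not independent of each other.

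By branch, the median log2 fold change was 0.15 in the mevalonate branch (7 of 8 positive), 0.13 in the squalene and sterol branch (10 of 12), 0.15 in fatty acid synthesis (7 of 8), 0.08 in SREBP control (3 of 5) and -0.06 in transport, storage and efflux (3 of 8). The mevalonate, sterol, SREBP control and fatty acid medians were positive in all 19 alternatives. The transport median was negative in 18, and it was 0.03 in the mice without Hcrt counts. When 1 mouse was left out, the SREBP control median ran from 0.0430 (without control mouse 2; 0.0435 without control mouse 1) to 0.10, and the transport median from -0.0773 (without depleted mouse 1) to -0.0149 (without control mouse 3). The differences between branches were not tested, because the members were picked with earlier results known.

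**Figure D2:**
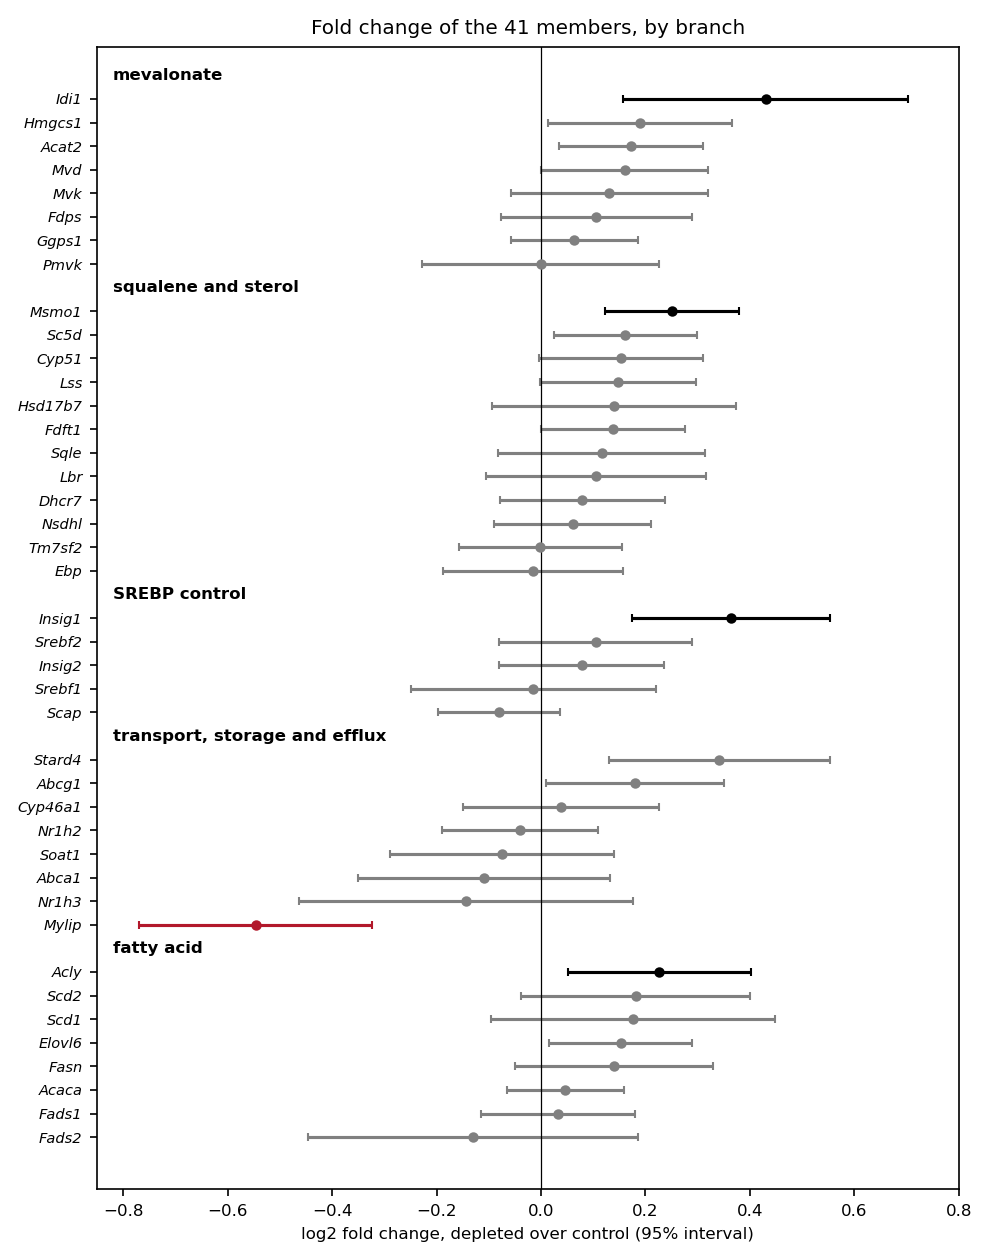
Log2 fold change of each member, depleted over control, with its 95% interval, grouped by branch; red marks an adjusted p under 0.05, black marks members whose groups did not overlap, and grey marks the rest. In the mevalonate, sterol and fatty acid branches 24 of 28 points lie right of 0, and only Mylip, at -0.55, has an adjusted p under 0.05.

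In the mevalonate branch, Idi1, the isomerase of the isoprenoid unit, had the largest fold change. It had 7.45, 7.44, 6.81 and 6.36 CPM in depleted mice and 4.84, 4.49, 5.24 and 6.25 CPM in control mice. Depleted mouse 4 and control mouse 4 were nearly level, and no depleted mouse was below a control mouse. The fold change was 0.43 on the log2 scale (adjusted p = 0.230, SE 0.12; DESeq2 adjusted p = 0.0483). Idi1 was also among the weakest members, with 218 to 472 counts per library. Of its exon bases, 9.22% overlap Gm48574 on the opposite strand.

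Hmgcs1, the synthase that makes HMG-CoA, had 259, 281, 231 and 228 CPM in depleted mice and 209.7, 214, 221 and 231 CPM in control mice. Depleted mice 1 and 2 stood clear of every control mouse, depleted mouse 3 was barely above the highest control mouse, and depleted mouse 4 lay within the control range. Its log2 fold change was 0.19 (adjusted p = 0.422, SE 0.08). Acat2, a thiolase at the entry of the pathway, had 35.3, 40.5, 39.7 and 39.6 CPM in depleted mice and 34.6, 35.6, 34.9 and 32.6 CPM in control mice. Depleted mouse 1 alone reached into the control range (log2 fold change 0.17, adjusted p = 0.354). Mvd, the decarboxylase that yields the isoprenoid unit, had 17.8, 20.03, 20.4 and 19.05 CPM in depleted mice and 17.99, 17.98, 16.6 and 16.7 CPM in control mice, and depleted mouse 1 lay within the control range (0.16, adjusted p = 0.454; 0.0962 in the mice without Hcrt counts). The kinase genes Mvk and Pmvk and the prenyl transferase genes Fdps and Ggps1 ran up to 0.13 in log2 fold change, and Pmvk averaged 34.6 CPM in both groups. Of the exon bases of Hmgcs1, 12.1% overlap Gm48342 on the opposite strand, and of those of Fdps 26.7% overlap Gm43738 on the same strand, so their counts may hold reads of these genes.

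The squalene and sterol branch was led by Msmo1, the oxidase that removes methyl groups from sterol intermediates. It had 84.0, 94.2, 83.8 and 81.4 CPM in depleted mice and 72.7, 71.7, 71.2 and 73.1 CPM in control mice. The control mice lay within 2 CPM of each other and every depleted mouse was above them. Msmo1 had a log2 fold change of 0.25 (adjusted p = 0.104, SE 0.06; DESeq2 adjusted p = 0.00659), with no overlap between groups.

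Sc5d, a sterol desaturase, had 69.7, 74.7, 69.3 and 67.4 CPM in depleted mice and 59.5, 59.7, 67.8 and 64.4 CPM in control mice, with overlap between depleted mouse 4 and control mouse 3 only (log2 fold change 0.16, adjusted p = 0.381). Fdft1, squalene synthase, had 92.5, 102.3, 95.1 and 94.8 CPM in depleted mice and 93.0, 84.0, 81.6 and 90.8 CPM in control mice, and depleted mouse 1 lay within the control range (0.14, adjusted p = 0.454). For Fdft1 the log2 fold change was 0.26 in the mice with Hcrt counts, 0.0349 in those without and 0.24 with the striatum mean as a covariate. The deposited counts do not state a strand setting, and 18.3% of the exon bases of Fdft1 overlap Ctsb, a cathepsin gene on the opposite strand. Lss, lanosterol synthase, had 49.4, 49.1, 50.8 and 45.9 CPM in depleted mice and 39.4, 43.9, 46.7 and 46.3 CPM in control mice, and depleted mouse 4 lay within the control range (0.15, adjusted p = 0.462). Its value was 0.0971 without control mouse 1 and 0.0906 with the striatum mean.

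Sqle, squalene epoxidase and a rate-limiting step, had 65.6, 78.0, 65.9 and 58.3 CPM in depleted mice and 59.2, 57.7, 63.9 and 66.2 CPM in control mice. Depleted mouse 2 stood alone at the top, and the other depleted mice overlapped the control mice. Its log2 fold change was 0.12 (95% interval -0.08 to 0.31, adjusted p = 0.693). In the mice with Hcrt counts it was 0.25, in those without it was -0.0092, and without depleted mouse 2 it was 0.0434. Among the 7 other sterol enzymes, Cyp51, Hsd17b7, Lbr, Dhcr7, Nsdhl, Tm7sf2 and Ebp, the log2 fold changes ran from -0.02 to 0.15.

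In SREBP control, the genes of the transcription factors themselves did not pass the test and overlapped between groups. Srebf2, the SREBP of sterol synthesis, had 225, 210.4, 199 and 186 CPM in depleted mice and 174, 187, 188 and 214 CPM in control mice, which overlapped (log2 fold change 0.10, 95% interval -0.08 to 0.29). Srebf1, the SREBP more tied to fatty acids, had 50.1, 65.5, 68.1 and 61.9 CPM in depleted mice and 61.4, 62.2, 69.9 and 54.5 CPM in control mice. Its log2 fold change was -0.01 (95% interval -0.25 to 0.22, adjusted p = 0.976). Scap had 95.7, 94.1, 93.2 and 89.5 CPM in depleted mice and 103.2, 99.1, 93.5 and 98.0 CPM in control mice, with overlap (-0.08, adjusted p = 0.630).

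Insig1, itself a target of SREBP, had 66.5, 85.6, 82 and 74.9 CPM in depleted mice and 61.5, 54.4, 63.0 and 61.3 CPM in control mice. Every depleted mouse was above every control mouse, depleted mouse 1 by the least. For Insig1 the log2 fold change was 0.36 (adjusted p = 0.113, SE 0.09), with DESeq2 at an adjusted p of 0.0120, and without depleted mouse 1 edgeR called it too (0.42, adjusted p = 0.0355). It was 0.52 in the mice with Hcrt counts and 0.21 in those without. Insig2 had 46.9, 47.2, 43.0 and 44.7 CPM in depleted mice and 39.9, 39.9, 47.2 and 45.2 CPM in control mice, with overlap (0.08, 95% interval -0.08 to 0.24). The difference between the 2 genes was not tested.

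Promoter letters are shown for 5 members, Hmgcs1, Idi1, Msmo1, Insig1 and Mylip. Of these, 3 led the mevalonate, sterol or SREBP control branch, Mylip was the called gene and Hmgcs1 was the one member with the sterol element searched. Acly, which led the fatty acid branch, is not shown. Each run is the 250 bases before the RefSeq start site (GRCm38.p6), 5′ to 3′ on the gene's strand, and capitals mark the motifs found on either strand. The motifs were TCACNCCAC (a sterol regulatory element bound by SREBP), CCAAT (bound by NF-Y) and GGGCGG (bound by Sp1), and no match overlapped one of another motif.
Hmgcs1, chr13:119690101-119690350, plus strand: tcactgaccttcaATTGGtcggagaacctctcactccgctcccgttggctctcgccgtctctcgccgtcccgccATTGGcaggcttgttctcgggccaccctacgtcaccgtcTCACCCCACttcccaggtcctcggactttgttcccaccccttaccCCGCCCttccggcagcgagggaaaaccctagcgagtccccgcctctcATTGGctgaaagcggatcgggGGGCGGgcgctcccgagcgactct
Idi1, chr13:8885356-8885605, plus strand: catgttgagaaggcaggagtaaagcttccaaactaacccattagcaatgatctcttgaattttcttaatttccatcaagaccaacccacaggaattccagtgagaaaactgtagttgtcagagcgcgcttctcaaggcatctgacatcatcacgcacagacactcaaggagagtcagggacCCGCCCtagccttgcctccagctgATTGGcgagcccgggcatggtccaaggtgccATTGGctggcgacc
Msmo1, chr8:64733579-64733828, minus strand: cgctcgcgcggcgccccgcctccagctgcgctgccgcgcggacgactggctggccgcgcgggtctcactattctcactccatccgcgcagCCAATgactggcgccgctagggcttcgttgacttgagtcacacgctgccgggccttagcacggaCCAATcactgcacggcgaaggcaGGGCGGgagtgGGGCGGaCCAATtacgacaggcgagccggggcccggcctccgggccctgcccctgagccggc
Insig1, chr5:28071162-28071411, plus strand: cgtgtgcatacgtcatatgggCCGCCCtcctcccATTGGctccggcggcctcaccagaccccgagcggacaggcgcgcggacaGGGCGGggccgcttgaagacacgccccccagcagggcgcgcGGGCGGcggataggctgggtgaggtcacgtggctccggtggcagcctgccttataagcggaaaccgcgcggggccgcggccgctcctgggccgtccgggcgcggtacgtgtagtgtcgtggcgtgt
Mylip, chr13:45389492-45389741, plus strand: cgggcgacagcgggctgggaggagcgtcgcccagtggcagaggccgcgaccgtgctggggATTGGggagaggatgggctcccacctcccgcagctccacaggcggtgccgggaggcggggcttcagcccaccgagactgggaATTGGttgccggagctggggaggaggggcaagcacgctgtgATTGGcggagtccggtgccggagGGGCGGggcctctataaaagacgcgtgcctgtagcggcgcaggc

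The RefSeq table matched 33 of the 41 members, with 42 start sites. CCAAT was in the window of 24 of the 33 genes (72.7%), against 37.5% of all genes in the table and 39.4% of those that were also tested here. It was in 10 of 10 sterol genes and 6 of 7 mevalonate genes, but in 1 of 5 fatty acid genes. GGGCGG was in 25 (75.8%), against 35.4% of all genes in the table and 58.7% of tested genes. TCACNCCAC was in Hmgcs1 alone (3.03%, against 1.22% of tested genes), 137 bases before the start. Mylip, which fell, had 3 CCAAT boxes and 1 GGGCGG box, as many CCAAT boxes as Msmo1. A repeat of AGGTCA with 4 bases between, the classical LXR element, was in none of the 33 and in 0.0148% of all genes in the table, so rarely that its absence here says nothing about these genes. These are exact letter matches in a short window and show no binding. A gene without a match, for the sterol element too, may hold a variant of it or one outside the window.

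Transport, storage and efflux genes had fold changes in both directions. Stard4, a carrier of cholesterol between membranes and a known SREBP target, had 35.8, 35.1, 32.2 and 27.0 CPM in depleted mice and 23.4, 25.7, 25.9 and 27.6 CPM in control mice. Depleted mice 1 to 3 stood above all control mice, and depleted mouse 4 was below control mouse 4. Stard4 had a log2 fold change of 0.34 (adjusted p = 0.219, SE 0.09), and without depleted mouse 4 it was called higher, at 0.42 (adjusted p = 0.0441).

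The efflux pump genes Abca1 and Abcg1, which LXR switches on, did not pass the test. Abca1, which loads cholesterol onto apolipoproteins, had 26.6, 26.7, 30.5 and 26.6 CPM in depleted mice and 24.4, 27.8, 34.7 and 32.2 CPM in control mice, so that all depleted mice lay within the control range. Its log2 fold change was -0.11 (95% interval -0.35 to 0.13, adjusted p = 0.778), -0.23 with the striatum mean as a covariate and -0.0219 without control mouse 3. Abcg1, a second efflux pump, had 63.3, 54.7, 65.5 and 61.6 CPM in depleted mice and 48.3, 58.2, 55.2 and 54.8 CPM in control mice, so that 3 depleted mice were above every control mouse and depleted mouse 2 was not. Its log2 fold change was 0.18 (95% interval 0.01 to 0.35, adjusted p = 0.428). It was 0.0173 with the striatum mean as a covariate, 0.0890 in the mice with Hcrt counts and 0.29 in those without. The difference in response between Mylip and the pumps was not tested. Mylip had a 95% interval of -0.77 to -0.32.

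The genes of the LXR themselves did not pass the test. Nr1h3, LXR alpha, had 2.77, 2.79, 2.87 and 3.52 CPM in depleted mice and 3.29, 3.81, 3.36 and 2.74 CPM in control mice (log2 fold change -0.14, 95% interval -0.46 to 0.18), with 137 to 199 counts per library. Nr1h2, LXR beta, averaged 50.5 ± 2.27 CPM in depleted and 51.9 ± 4.03 CPM in control mice. Soat1, which stores cholesterol as esters, had 38.4, 39.6, 34.4 and 33.5 CPM in depleted mice and 32.4, 37.3, 43.2 and 40.8 CPM in control mice (-0.07, 95% interval -0.29 to 0.14). Cyp46a1, the neuronal enzyme that turns cholesterol into a form that leaves the brain, had 276, 228, 237 and 263 CPM in depleted mice and 238, 263, 221 and 256 CPM in control mice (0.04, 95% interval -0.15 to 0.23).

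Among fatty acid genes, Acly, the enzyme that makes cytosolic acetyl-CoA, had 207, 184, 203 and 180.4 CPM in depleted mice and 149, 175, 179 and 159 CPM in control mice. All depleted mice were above all control mice, and depleted mouse 4 was nearly level with control mouse 3. Acly had a log2 fold change of 0.23 (adjusted p = 0.339, SE 0.08), and it was 0.10 with the striatum mean as a covariate. Elovl6, which lengthens palmitate, had 62.1, 61.0, 64.1 and 55.4 CPM in depleted mice and 52.5, 53.1, 57.8 and 54.7 CPM in control mice (0.15, adjusted p = 0.404), and depleted mouse 4 alone lay within the control range. Fasn, fatty acid synthase, had 288, 286, 275 and 233 CPM in depleted mice and 227, 236, 258 and 262 CPM in control mice, where depleted mouse 4 fell among the control mice (0.14, 95% interval -0.05 to 0.33).

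Of the 2 stearoyl-CoA desaturase genes, Scd1 varied more between mice of 1 group than Scd2. The coefficient of variation was 11.1% in depleted and 16.1% in control mice for Scd1. For Scd2 it was 8.15% in depleted and 10.6% in control mice. Scd2 had 1214, 1319.8, 1425 and 1200.05 CPM in depleted mice and 1034, 1163, 1296 and 1055 CPM in control mice (log2 fold change 0.18, 95% interval -0.04 to 0.40). Scd1 had 165, 196, 217 and 194 CPM in depleted mice and 168, 172, 205 and 138 CPM in control mice (0.18, 95% interval -0.10 to 0.45). For both genes the highest mouse of each group was mouse 3, and the groups overlapped. With the striatum mean as a covariate the log2 fold change was 0.0995 for Scd2 and 0.11 for Scd1, and without control mouse 4 it was 0.0863 for Scd1. The 2 genes are close paralogs on chromosome 19, and how reads matching both were counted is not given in the sources used here. Acaca, Fads1 and Fads2 had log2 fold changes from -0.13 to 0.05.

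Branch means were also compared mouse by mouse. The mevalonate mean was 5.02, 5.13, 5.04 and 5.04 log2 CPM in depleted mice and 4.94, 4.87, 4.89 and 4.87 log2 CPM in control mice. The sterol mean was 5.27, 5.40, 5.30 and 5.25 log2 CPM in depleted mice and 5.20, 5.16, 5.21 and 5.21 log2 CPM in control mice. Depleted mice were above all control mice in both branches, and in the other 3 branches the groups overlapped. Depleted mouse 2 was the highest of the 8 mice in 7 of 12 sterol genes and 4 of 8 mevalonate genes. That mouse also had the lowest striatum mean of the depleted mice, at 5.81 log2 CPM.

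Marker lists of the cell types that make these lipids differed between mice as well. The mean of 16 mature oligodendrocyte and myelin genes was 6.96, 7.18, 7.52 and 7.26 log2 CPM in depleted mice. In control mice it was 7.10, 6.88, 6.90 and 6.26 log2 CPM, and 0 of the 16 were called by edgeR. At an unadjusted p under 0.05, 10 of the 16 were higher in depleted mice, where 5.38% of all genes were. The median log2 fold change of the 16 was 0.46, and only Hapln2 had a negative one (-0.0073). Newly forming oligodendrocyte markers averaged 4.25 to 4.56 log2 CPM in depleted and 3.51 to 4.15 log2 CPM in control mice. Enpp6, Bmp4 and Zfp488, 3 of the 7, were called higher (0.0546% of all genes were). Bcas1 (log2 fold change 0.31), Itpr2 (0.08), Tmem163 (0.03) and Tcf7l2 (-0.08) did not pass the test. Of 7 precursor markers, 3 were called lower (1.11% of all genes were), while Gpr17 (log2 fold change 0.60, adjusted p = 0.177), Cacng4 (0.33) and Sox10 (0.23) had positive fold changes that did not pass the test. The mean of 12 astrocyte markers was 7.52, 7.78, 7.56 and 7.46 log2 CPM in depleted mice and 7.57, 7.53, 7.67 and 7.51 log2 CPM in control mice, with no gene called. Depleted mouse 2, highest in the sterol mean, was also highest in the astrocyte mean, whereas depleted mouse 3 was highest in the myelin mean. In depleted mouse 2 the astrocyte marker Gfap had 582 CPM, against 200 to 293 CPM in the other mice. For Slc1a2 and Aldoc, among other astrocyte markers, a control mouse was highest. The part of these cell types in the fold changes was not tested.

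**Figure D3:**
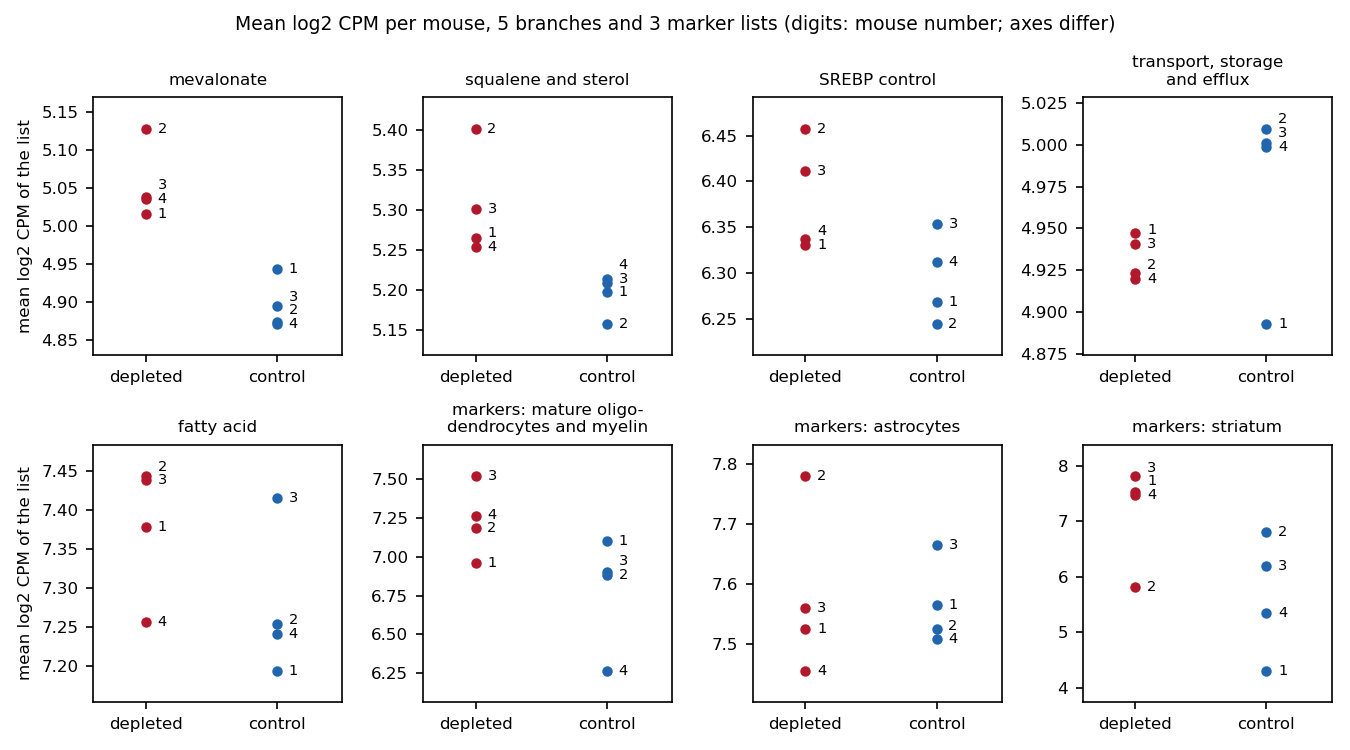
Mean log2 CPM of each branch and of 3 marker lists in each mouse, depleted mice at left and control mice at right, with digits for the mouse number and a separate axis per panel. The mevalonate and sterol means of all depleted mice lie above those of all control mice, by less than 0.3 log2 units, while the myelin, astrocyte and striatum means overlap between the groups.

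Other lipid genes, listed by role but with earlier results of these data known, are given here for comparison. Of 17 further sterol genes, 0 were called by edgeR and 4 had an unadjusted p under 0.05 in either direction, where 11% of all genes did, with a median of 0.02. Mbtps1, a protease that activates SREBP, averaged 97.9 ± 8.12 CPM in depleted and 86.8 ± 2.99 CPM in control mice (log2 fold change 0.17, adjusted p = 0.390). Ch25h, a sterol hydroxylase, was near the detection limit at 0.251 ± 0.0833 CPM in depleted and 0.425 ± 0.0854 CPM in control mice (-0.77, adjusted p = 0.400). Of 18 further fatty acid genes, 0 were called by edgeR and 3 had an unadjusted p under 0.05, with a median of 0.04. Elovl7, an elongase, had 14.7, 14.2, 18.9 and 16.5 CPM in depleted mice and 12.5, 10.9, 10.3 and 9.97 CPM in control mice, without overlap (0.56, SE 0.11, adjusted p = 0.0577). Dgat2, which makes triglycerides, averaged 88.1 ± 10.9 CPM in depleted and 73.6 ± 2.30 CPM in control mice (0.26, adjusted p = 0.310). DESeq2 called 1 of these 35 genes higher, where it called 0.586% of all genes. EdgeR called 2 without depleted mouse 2, a fit that called 243 of all genes higher.

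Levels per length spanned a wide range. Divided by annotated exon length, Scd2 stood at 236 ± 19.2 CPM per kb in depleted and 208 ± 22.0 CPM per kb in control mice, followed by Cyp46a1 at 76.4 ± 6.73 CPM per kb in depleted and 74.4 ± 5.84 CPM per kb in control mice. Hmgcs1 came next, at 54.4 ± 5.45 CPM per kb in depleted and 47.7 ± 2.04 CPM per kb in control mice. Fads1 followed, at 43.6 ± 1.68 CPM per kb in depleted and 42.6 ± 2.87 CPM per kb in control mice. Mylip lay far lower, at 3.10 ± 0.360 CPM per kb in depleted and 4.52 ± 0.313 CPM per kb in control mice. Nr1h3 was the lowest of the 41, at 1.19 ± 0.142 CPM per kb in depleted and 1.31 ± 0.175 CPM per kb in control mice. The length is that of all annotated exons of a gene together, which understates genes with long unused exons.

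**Figure D4:**
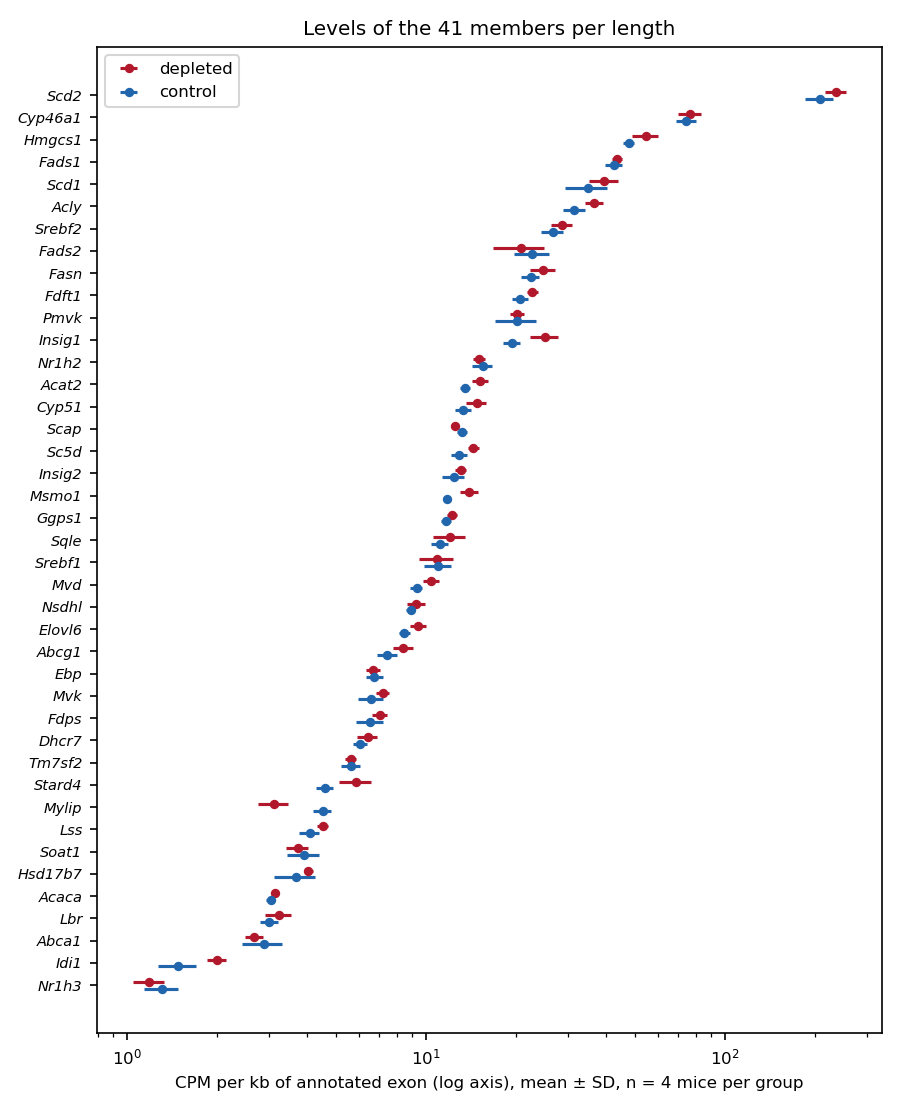
Mean ± SD (n = 4 mice per group) of each member in CPM per kb of annotated exon on a log axis, depleted above control, ordered by the control level. Scd2, at 236 CPM per kb in depleted and 208 CPM per kb in control mice, stands well above the other members, and Mylip stands at 3.10 CPM per kb in depleted and 4.52 CPM per kb in control mice.

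Over the 19 alternatives the log2 fold change ran from 0.33 to 0.55 for Idi1, from 0.21 to 0.52 for Insig1, from 0.29 to 0.42 for Stard4 and from 0.19 to 0.32 for Msmo1. Adjusted p was under 0.05 in 1 of 19 for Idi1, 2 for Insig1, 1 for Stard4, 1 for Msmo1 and 8 for Mylip. The adjusted p ran from 0.0483 to 0.827 for Idi1, from 0.0120 to 0.723 for Insig1, from 0.0441 to 0.968 for Stard4, from 0.00659 to 0.748 for Msmo1 and from 3.98e-05 to 0.906 for Mylip.

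**Figure D5:**
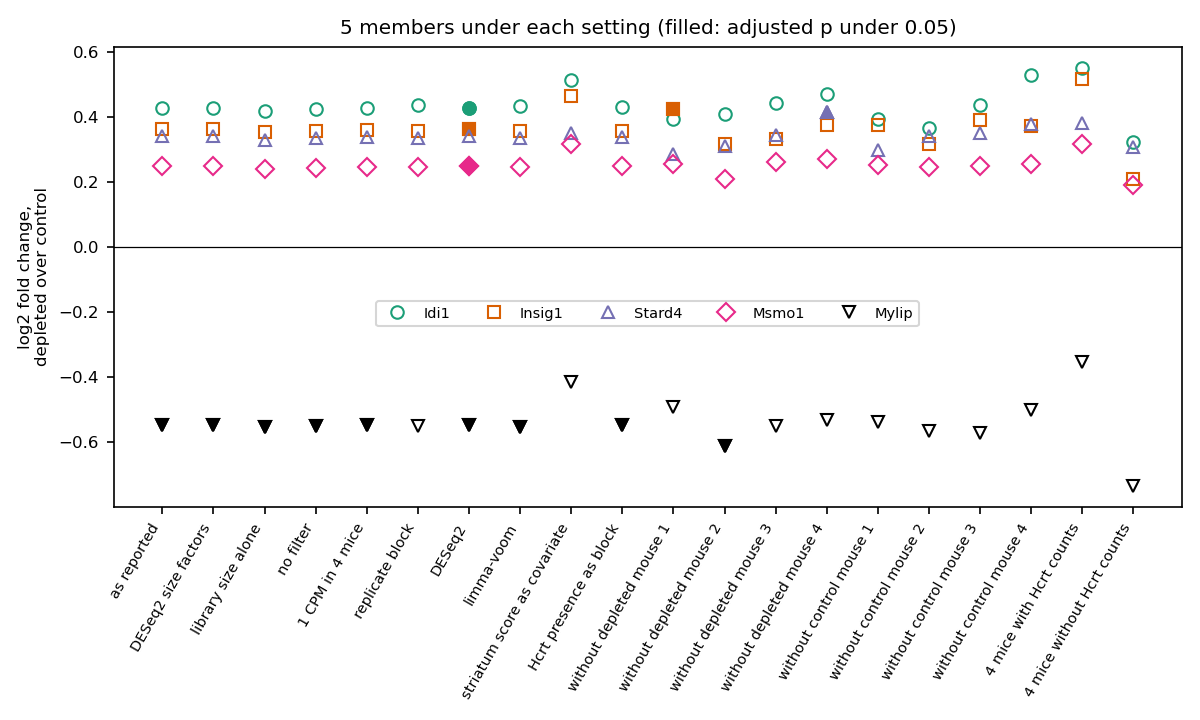
Log2 fold change of Idi1, Insig1, Stard4, Msmo1 and Mylip, depleted over control, in the reported fit and in 19 alternatives along the x axis; filled symbols have an adjusted p under 0.05. Signs are the same throughout, and filled symbols are mostly those of Mylip, which is called in the reported fit and in 8 alternatives.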

How the data were processed

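Bulk RNA-seq of the forebrain of 8 mice was deposited as raw whole-number counts for each gene symbol, in 8 columns named after the samples. The submitters' processing notes name STAR, FastQC, MultiQC, DESeq and DESeq2, and the build mm10. The sources used here do not give versions, annotation release, strand setting or library kit. Groups and mouse numbers came from the titles. The labels describe separate mice, so errors are spreads between mice (SD, n = 4) unless an SE of the model is named.

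Counts were filtered with filterByExpr (20140 symbols kept), scaled with TMM and tested across all genes with edgeR 4.0.16 in R 4.3.3 (glmQLFit, glmQLFTest) on 2 groups without covariates. Adjustment was by Benjamini-Hochberg across the 20140 symbols, with a threshold of 0.05, and intervals are 95% intervals of the model. A prior count of 2 was used for log2 CPM. The steps were tested on simulated data. Replicate libraries differed by at least 11.2 times the counting noise per gene, so each counted once. Libraries held 48455538 to 68406688 counts, so even the weakest member had at least 137 counts in each.

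The members, the branches, the related genes and the markers were chosen with earlier results of these data known. Named with the value of every mouse were members that passed, did not overlap between groups, or had the 4 smallest p in their branch, and further ones fixed by role; of each related list, the 2 genes with the smallest p. GENCODE M21 (GRCm38, the assembly of mm10) gave exon lengths and overlaps: 6 members share exon bases with a gene on the same strand, 8 on the opposite strand only. RefSeq (GRCm38.p6) gave the promoters. The 19 alternatives were DESeq2 size factors, library size alone, no filter, 1 CPM in 4 mice, DESeq2 1.42.0, the mouse number as a block, limma-voom (limma 3.58.1), the striatum mean as a covariate, Hcrt presence (at least 100 counts) as a block, leaving out each mouse in turn, and the mice with and the mice without Hcrt counts fitted apart, a split added after seeing the data. A prior count of 0.5 bears on the branch means alone and moved none of them beyond the spread between mice.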

Additional observations from a re-analysis of the deposited data

Results flagged for a closer look

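In 4 of 64 sets of 4 mice (26 members and 6 branch means in both groups), 1 mouse stood apart from the other 3 by Dixon's ratio at its 95% critical value; chance flags about 1 in 20 sets, or 3.2 of 64. Acat2 had 35.3 CPM in depleted mouse 1 while depleted mice 2 to 4 had 39.6 to 40.5 CPM. Abca1 had 30.5 CPM in depleted mouse 3 against 26.6 to 26.7 CPM in the others. Nr1h3 had 3.52 CPM in depleted mouse 4 against 2.77 to 2.87 CPM. The mean of the transport, storage and efflux branch was 4.89 log2 CPM in control mouse 1 against 4.999 to 5.01 log2 CPM in the other control mice.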

How the results depend on the processing

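Of 494 values of the 26 named members under alternatives, 469 kept their direction and their side of the threshold, 11 lost a call (all Mylip), 5 gained one and 9 turned sign. Across all genes, 223 were lower and 11 higher as reported; DESeq2 gave 346 and 118, the 4 mice with Hcrt counts 66 and 0, and those without 128 higher. Higher genes numbered 25 with no filter, 6 with 1 CPM in 4 mice and 2 with the striatum mean. Leaving out 1 mouse gave 178 to 441 lower and 2 to 243 higher genes, both highest without depleted mouse 2. Members called lower numbered 0 with the striatum mean and in either Hcrt split, and 0 to 1 without 1 mouse. Members called higher numbered 3 in DESeq2 and 0 to 1 without 1 mouse. Related lipid genes called higher numbered 1 in DESeq2, 1 with no filter and 0 to 2 without 1 mouse (2 without depleted mouse 2). In the 4 mice without Hcrt counts the median of the sterol branch was 0.0356 and that of transport 0.0270. Signs turned for Sqle (-0.0092) and Nr1h3 (0.0686) in the mice without Hcrt counts, for Srebf1 (0.0196) and Cyp46a1 (-0.0527) in those with them, for Cyp46a1 with the striatum mean (-0.0336), and, without 1 mouse, within -0.0710 to 0.0661 for Srebf1 and -0.0144 to 0.0892 for Cyp46a1. The causes were not tested. A scaling by library size alone moved the median of all genes to -0.0100.

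Whether mouse numbers pair the samples was not settled. The deviations of same-numbered mice correlated at -0.22, -0.17, 0.37 and -0.01, and 1 of 4 depleted mice correlated best with its own number. Hcrt counts, by comparison, were high in mice 2 and 3 of both groups. With the replicate block 4 genes were called higher over all genes, and 0 members were called lower (Mylip -0.55, adjusted p = 0.170); 7 members had an unadjusted p under 0.05, against 13 without the block. How far depth limited the calls was not tested; the weakest member, Nr1h3, had 137 to 199 counts per library.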

Other observations

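The spread between mice of one group differed widely among the lipid genes. In control mice the coefficient of variation ran from 1.17% for Msmo1 to 16.1% for Scd1, with a median of 7.12%; in depleted mice the median was 6.95%. Hmgcs1 (10.0% in depleted and 4.29% in control mice), Sqle (12.2% in depleted and 6.43% in control mice) and Stard4 (12.2% in depleted and 6.72% in control mice) varied more among depleted mice, and Hsd17b7 (3.64% in depleted and 15.7% in control mice) and Pmvk (5.66% in depleted and 15.5% in control mice) varied more among control mice. In all, 17 of 41 members had the larger spread in depleted mice. These genes were picked after their values were seen, and the differences in spread were not tested.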
